A study of Mus musculus with 9 samples.

Results

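Livers of mice given AAVrh.10Null were compared with livers of mice given PBS, gene by gene, on counts summed over each whole library. The members were the 3 AAVrh.10Null livers (mice 2, 5 and 8) and the 3 PBS livers (mice 1, 4 and 7), chosen by their treatment labels, and made up 6 of the 9 livers of the series. All mice were wild-type C57BL/6 males aged 8 weeks, injected into a vein, and the other 3 received AAVrh.10mCherry. Liver cells were dissociated and profiled by Drop-seq, which captures cells on barcoded beads in droplets and counts each transcript once by its unique molecular identifier (UMI). UMIs were summed per gene over the barcodes with at least 200 genes, so that 1 liver gave 1 profile, and these covered 28924 of the 32000 deposited barcodes of the 6 livers. AAVrh.10 is a serotype of adeno-associated virus, and neither the content of the Null vector, its dose nor the time to collection is given in the sources used here. The labels do not say whether mice were housed, dissociated or sequenced together.

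Recombinant adeno-associated virus vectors given into a vein reach the liver in large amounts and enter hepatocytes, where the vector genome persists mostly outside the chromosomes. Sensors of the capsid and the DNA can raise interferon responses, and antibodies against the capsid come from B cells and plasma cells, whose transcripts join a variable (V), a joining (J) and a constant segment. In dissociated tissue, damaged cells lose cytoplasmic RNA first, and nuclear RNA and mitochondrial transcripts then take a larger share of a library.

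The AAVrh.10Null libraries held 5669206, 4234127 and 6729384 UMIs in 7195, 3997 and 7188 barcodes for mice 2, 5 and 8. The PBS libraries held 11220147, 5332359 and 291338 UMIs in 5196, 4798 and 550 barcodes for mice 1, 4 and 7. PBS liver 7 was by far the thinnest, with 550 of its 3600 deposited barcodes retained, and 1 UMI there was worth 3.45 CPM (UMIs scaled to a common library total, with the TMM factors of edgeR). Barcodes ending in an undetermined base made up 0.0972%, 27.5% and 0.278% of the deposited barcodes of AAVrh.10Null livers 2, 5 and 8, and 25.4%, 25.4% and 4.83% in PBS livers 1, 4 and 7. Livers 2, 7 and 8 thus stood apart from the other 6 in this measure, for which the labels give no batch. Values within each of the 2 kinds are given below for the library measures and for every list whose 2 medians differed in sign, which were 13 of 49. For genes they are on a log2 scale with a pseudocount of 1 CPM, on which the median of all genes tested was 0.23 among livers 2, 7 and 8 and -0.01 among livers 1, 4 and 5. The mCherry transgene gave 0, 96 and 1 UMIs in AAVrh.10Null livers 2, 5 and 8, and 273, 0 and 0 in PBS livers 1, 4 and 7. The AAVrh.10mCherry livers had 15431 to 47325, so the labels of the transgene group held. Without TMM scaling, AAVrh.10Null liver 5 carried 22.7 CPM of the transgene and PBS liver 1 24.3 CPM. Libraries shared at most 6 barcodes.

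Of 26388 features, 11321 genes passed the filter on low counts and were tested with edgeR's quasi-likelihood test. A single gene passed the Benjamini-Hochberg adjusted threshold of 0.05, which is 0.00883% of the genes tested. It was Igkv3-12, 1 of the V segments from which kappa light chains of antibodies are built, and it rose in AAVrh.10Null livers. No gene fell (0%). At an unadjusted p under 0.05, 1458 genes (12.9%) stood out, of which 1060 (9.36% of the genes tested) were higher and 398 (3.52%) lower in AAVrh.10Null livers. In 11.7% of the genes every AAVrh.10Null liver lay above every PBS liver, and in 7.52% every one lay below. The fitted change was above 0 in 48.8% of the genes. The median log2 change of all genes was -0.01, and the biological coefficient of variation was 0.266. The p-values measure the spread between these livers, since the labels give 1 library per mouse.

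**Figure D1:**
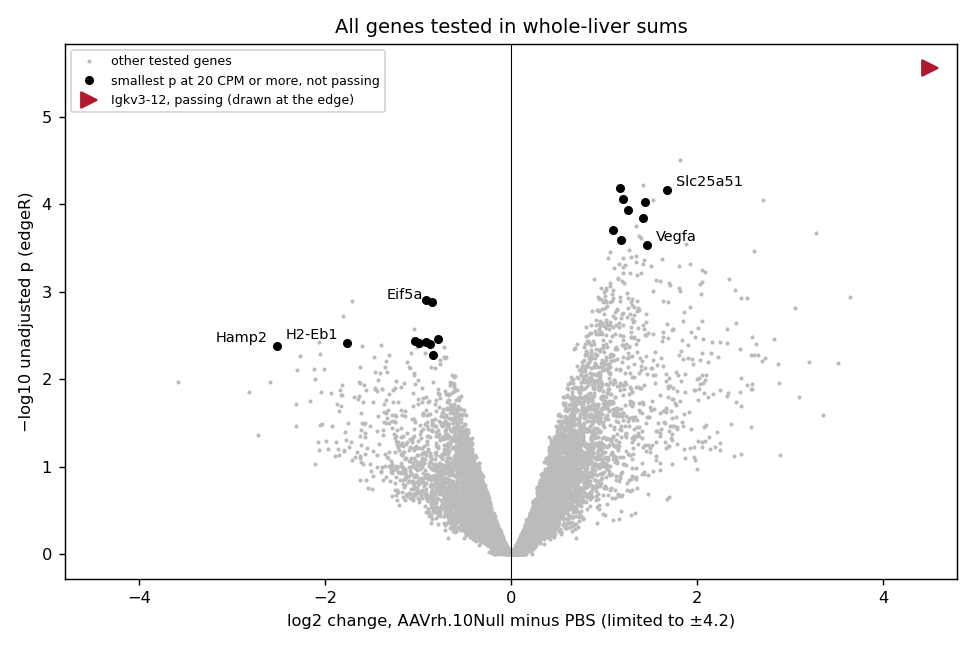
Each point is 1 of the 11321 genes, with the log2 change of AAVrh.10Null minus PBS livers on the x axis and the negative log10 of the unadjusted edgeR p on the y axis. Igkv3-12 is the single gene past the adjusted threshold and is drawn at the right edge, its fitted change of 13.26 being out of range. Black points are the genes with the smallest p in each direction among those averaging at least 20 CPM.

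Igkv3-12 had 704, 1048 and 1561 UMIs in AAVrh.10Null livers 2, 5 and 8, against 0, 0 and 0 in PBS livers 1, 4 and 7. In the AAVrh.10mCherry livers it had 0, 15 and 0. The groups did not overlap, and the gene was present in libraries of both barcode kinds. Without TMM scaling, the level was 124 CPM (95% exact Poisson interval 115 to 134) in liver 2, 248 (233 to 263) in liver 5 and 232 (221 to 244) in liver 8, intervals that cover counting error only. PBS liver 1 allowed at most 0.267 CPM and PBS liver 4 at most 0.563 CPM by the 3 UMIs that a count of 0 allows, whereas PBS liver 7 allowed 10.3. Against a floor of 3 UMIs in the pooled PBS livers, the pooled level was at least 1118-fold higher in AAVrh.10Null livers. The fitted log2 change was 13.26 (SE 1.48, adjusted p = 0.0317, edgeR), a value that depends on the prior count because every PBS liver was at 0. The transcript was spread over 9.23%, 22.9% and 18.4% of the barcodes of livers 2, 5 and 8. The call was lost without AAVrh.10Null liver 8 (adjusted p = 0.0883, edgeR), PBS liver 1 (0.0743), PBS liver 4 (0.258) or PBS liver 7 (0.0951), and with a term for livers 2, 7 and 8 (0.0597), limma-voom (0.0632) or genes of at least 20 CPM alone (0.0619). Whether the Igkv3-12 reads came from light chain transcripts of the livers was not tested.

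Among all features, 3 had at least 5 UMIs in each AAVrh.10Null liver and 0 in every PBS liver, and all of them were immunoglobulin gene segments. No feature had the opposite pattern, for which PBS liver 7 would need a level of at least 17.2 CPM, against 0.743 to 1.18 CPM for 5 UMIs in an AAVrh.10Null liver, so the 2 counts cannot be compared. Beside Igkv3-12 they were Ighv9-3, a heavy chain V segment, and Igkj1, the first J segment of the kappa chain, both of which were below the filter for testing and were singled out after their values were seen. Ighv9-3 had 5, 53 and 47 UMIs in AAVrh.10Null livers 2, 5 and 8, against 0, 0 and 0 in PBS livers 1, 4 and 7. Igkj1 had 5, 5 and 13 UMIs in the same AAVrh.10Null livers and 0 in each PBS liver. Pooled levels were at least 35.4-fold higher for Ighv9-3 and at least 7.76-fold higher for Igkj1 in AAVrh.10Null livers, against the same pooled floor. Igkv3-3, a near relative of Igkv3-12, had 4, 5 and 5 UMIs against 0 in PBS livers, and the counting could have split reads between such V segments.

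The sequences of the 3 segments are shown because they are the features confined, at 5 or more UMIs in each liver, to the AAVrh.10Null side of this comparison. They are from GENCODE M21 transcripts on GRCm38, 5′ to 3′ on the strand of the gene. Igkv3-12 lies on the plus strand, and the last 300 of its 359 bases, chr6:70518550-70518849 in exon 2, are given. Ighv9-3 lies on the minus strand, and the last 300 of its 351 bases, chr12:114140692-114140991 in exon 2, are given. Igkj1 is given whole, 38 bases on the plus strand at chr6:70722562-70722599. Capitals mark the last TGT of each V segment, which codes the conserved cysteine before the third hypervariable loop, and in Igkj1 the TTCGGTGGAGGC that codes the Phe-Gly-Gly-Gly motif of a J segment.
Igkv3-12: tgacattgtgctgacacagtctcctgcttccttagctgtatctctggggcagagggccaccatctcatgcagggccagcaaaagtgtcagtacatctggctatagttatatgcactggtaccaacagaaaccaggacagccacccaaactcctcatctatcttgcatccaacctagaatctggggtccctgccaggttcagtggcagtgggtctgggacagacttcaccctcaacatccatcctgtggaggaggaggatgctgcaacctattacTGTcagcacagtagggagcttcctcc
Ighv9-3: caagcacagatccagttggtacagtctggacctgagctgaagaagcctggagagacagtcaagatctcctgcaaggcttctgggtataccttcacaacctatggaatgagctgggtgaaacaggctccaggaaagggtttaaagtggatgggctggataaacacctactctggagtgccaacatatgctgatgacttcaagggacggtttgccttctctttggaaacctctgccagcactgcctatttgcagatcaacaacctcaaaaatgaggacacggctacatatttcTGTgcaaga
Igkj1: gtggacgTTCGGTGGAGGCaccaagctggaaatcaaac

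The constant segments did not follow the V segments. Igkc, the kappa constant region that every complete kappa transcript carries, had 70, 18 and 54 UMIs in AAVrh.10Null livers 2, 5 and 8, against 50, 110 and 111 in PBS livers 1, 4 and 7. There were 10.1, 58.2 and 28.9 Igkv3-12 UMIs per Igkc UMI in AAVrh.10Null livers 2, 5 and 8. Igkc did not pass the test (log2 change -3.58, adjusted p = 0.258, edgeR), and the groups overlapped. Of plasma and B cell genes, Jchain had 3, 2 and 5 UMIs in AAVrh.10Null livers and 2, 7 and 20 in PBS livers 1, 4 and 7, and Igha, the constant region of IgA, had 0, 1 and 2 UMIs in AAVrh.10Null livers against 1, 5 and 62 in PBS livers. Cd79a, a B cell receptor subunit, had 2, 0 and 1 UMIs in AAVrh.10Null livers and 0, 2 and 1 in PBS livers. Of the 10 plasma cell markers listed, 2 had no UMI in any AAVrh.10Null liver and 1 had none in any PBS liver, and each of the 12 B cell markers had a UMI in both groups. The summed levels of both lists, given below with the other cell types, overlapped between the groups, and the part of these cells in the V segment values was not tested. Retnla, which encodes a secreted protein of alternatively activated macrophages, was another feature with no PBS UMIs, but it had 0, 20 and 124 UMIs in AAVrh.10Null livers 2, 5 and 8.

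Among the genes averaging at least 20 CPM with the smallest p, 9 were higher in AAVrh.10Null livers without passing the test, at adjusted p between 0.120 and 0.154 (edgeR). Nlrp6, an inflammasome receptor, was at 198, 212 and 213 CPM in AAVrh.10Null livers 2, 5 and 8, against 98.3, 90.5 and 79.4 CPM in PBS livers 1, 4 and 7 (log2 change 1.20, SE 0.21, adjusted p = 0.120). Slc25a51, the mitochondrial NAD transporter, was at 82.8, 45.9 and 84.9 CPM in AAVrh.10Null livers and 20.7, 22.4 and 27.6 CPM in PBS livers (log2 change 1.68). The groups were apart for both, though with 23 and 8 UMIs in PBS liver 7 its values were coarse. Slc39a14, which imports zinc and non-transferrin iron into hepatocytes, was at 107, 100.5 and 102.5 CPM in AAVrh.10Null livers and 46.8, 36.1 and 24.2 CPM in PBS livers (log2 change 1.42). Vegfa, the endothelial growth factor, was at 91.6, 65.4 and 102 CPM in AAVrh.10Null livers and 36.5, 30.6 and 20.7 CPM in PBS livers (log2 change 1.46). The others were Ccnl2, a cyclin of nuclear speckles, at a log2 change of 1.44, the potassium-chloride cotransporter Slc12a7 at 1.26, Zfc3h1, which targets nuclear RNA to the exosome, at 1.18, the long non-coding RNA 9030622O22Rik at 1.17 and the elongation cyclin Ccnt2 at 1.10. In the AAVrh.10mCherry livers Nlrp6 was at 132, 158 and 164 CPM, between the other groups.

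In the other direction 10 genes were lower, at adjusted p between 0.158 and 0.212. Eif5a, a translation elongation factor, was at 116, 111 and 111 CPM in AAVrh.10Null livers 2, 5 and 8, against 216, 172 and 228 CPM in PBS livers 1, 4 and 7 (log2 change -0.85, SE 0.21, adjusted p = 0.158, edgeR). Hamp2, the second hepcidin gene of the mouse, was at 45.2, 20.98 and 34.3 CPM in AAVrh.10Null livers and 93.7, 84.5 and 448.6 CPM in PBS livers (log2 change -2.52, SE 0.72). Both sets of livers were apart, and PBS liver 7 was far above the other PBS livers for Hamp2, whose log2 change without it was -1.4. Cfl1, an actin-severing protein, was at 51.6, 43.9 and 55.7 CPM in AAVrh.10Null livers and 81.3, 78.4 and 172.6 CPM in PBS livers (log2 change -1.03). H2-Eb1, a class II antigen-presenting chain, had a log2 change of -1.76, with liver 2 at 12.48 CPM and PBS liver 1 at 12.49 CPM all but touching. Lower values were also seen for Lamtor2 of the lysosomal Ragulator complex (-0.91), Tceal8 (-0.92), the dehydrogenase Dhrs7 (-0.84), the splicing-associated Ccdc12 (-0.79) and Scp2-ps2 (-0.99). Scp2-ps2 is a pseudogene that shares sequence with Scp2, so its count is uncertain.

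**Figure D2:**
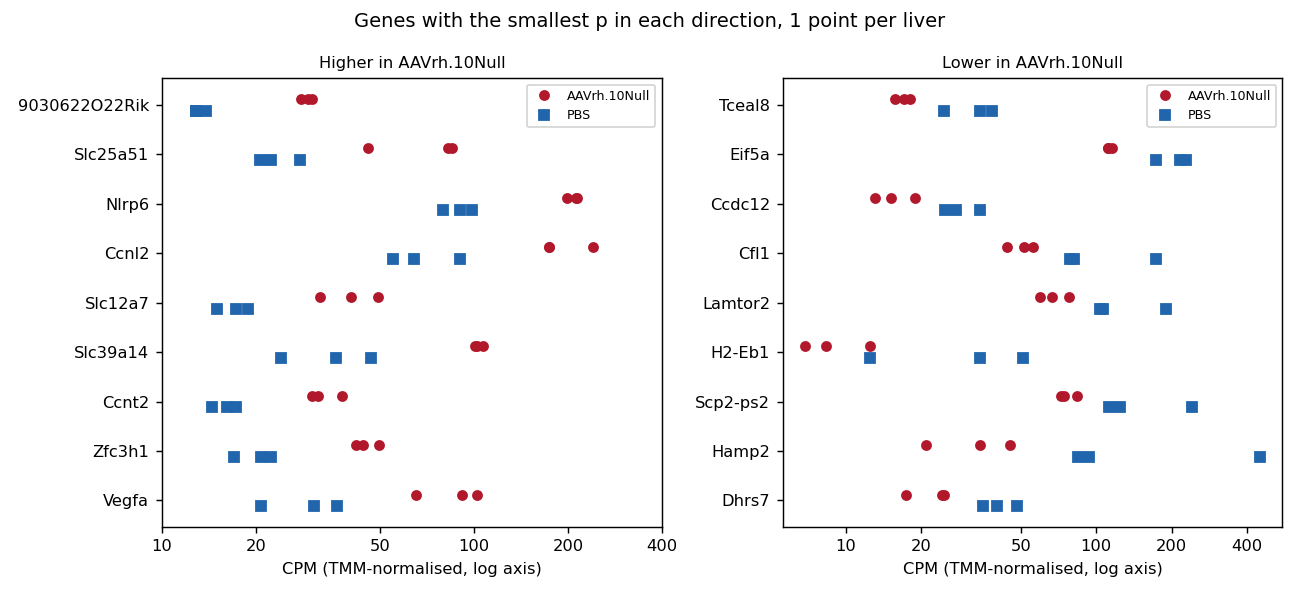
CPM per liver on a log axis for the 9 genes with the smallest p above PBS and 9 of the 10 below it among those averaging at least 20 CPM, none of which passed the adjusted threshold. Circles are the 3 AAVrh.10Null livers and squares the 3 PBS livers; the groups are apart in each row because small p values chose the genes, and H2-Eb1 is apart by 0.01 CPM.

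DESeq2 on the same counts gave 41 higher calls (0.362% of the genes tested) and 3 lower ones (0.0265%), while limma-voom gave 0 calls at 1541 genes with an unadjusted p under 0.05. All 44 DESeq2 calls had the same sign in edgeR, and the livers were apart for 43 of them. Small p values on the same counts chose these genes, so neither count is separate support for them. Among all genes tested, the livers were apart upward in 11.7% and downward in 7.52%. The higher calls included Mlxipl, the glucose-responsive lipogenic factor, at 397, 376 and 545 CPM in AAVrh.10Null livers 2, 5 and 8, against 169, 119 and 245 CPM in PBS livers 1, 4 and 7 (edgeR log2 change 1.35). Alas1, the rate-limiting enzyme of haem synthesis, was at 348, 284 and 114 CPM in AAVrh.10Null livers and 52.3, 78.4 and 41.4 CPM in PBS livers (edgeR log2 change 2.05). The 41 calls also held Gcgr, the glucagon receptor, at an edgeR log2 change of 1.02, the liver transcription factor Onecut2 at 1.20, the 5-methylcytosine oxidase Tet2 at 1.52 and the autophagy kinase Ulk1 at 1.41. Of the 3 lower calls, Eif5a is described above, Cyp2c69, a cytochrome P450 of the 2c family, had an edgeR log2 change of -2.27, and Gm10250 (-1.63) has a gene symbol only. Gm10250 was at 148 CPM in PBS liver 7, 23.7 and 33.8 CPM in PBS livers 1 and 4, and 15.9 to 17.3 CPM in AAVrh.10Null livers. None of the DESeq2 calls but Igkv3-12 passed edgeR's adjusted threshold, and they were singled out after the DESeq2 result was seen.

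The measures of nuclear RNA did not all follow the groups. Malat1, the abundant long RNA of nuclear speckles, made up 2.30%, 0.606% and 1.502% of the UMIs of AAVrh.10Null livers 2, 5 and 8, against 0.463%, 0.277% and 1.59% in PBS livers 1, 4 and 7. The groups overlapped (two-sided exact permutation p = 0.3, adjusted p = 0.525 over 7 library measures, n = 3 livers each). High Malat1 followed the barcode kind: livers 2, 7 and 8 averaged 1.90% (AAVrh.10Null) and 1.59% (PBS), whereas livers 5, 1 and 4 averaged 0.606% (AAVrh.10Null) and 0.370% (PBS). Barcodes with over 5% Malat1 made up 17.2%, 0.150% and 6.30% of the barcodes of AAVrh.10Null livers 2, 5 and 8 and 0.943%, 0.438% and 4.55% in PBS livers. Those barcodes held 64.4% of all Malat1 UMIs in liver 2 and 1.75% in liver 5. The gene-level change was 0.90 (SE 0.57, adjusted p = 0.514, edgeR). A term for livers 2 and 8, which leaves liver 5 alone to stand for the AAVrh.10Null group against PBS, gave -0.33.

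As a sum, the other RNAs known to stay in the nucleus were higher in every AAVrh.10Null liver than in any PBS liver. Their summed share was 0.142%, 0.117% and 0.146% in AAVrh.10Null livers 2, 5 and 8, against 0.0567%, 0.0454% and 0.0765% in PBS livers 1, 4 and 7. The groups did not overlap, with means of 0.135 ± 0.0159% in AAVrh.10Null livers and 0.0596 ± 0.0158% in PBS livers (SD, n = 3 each), but the exact permutation p was 0.1, the smallest that 3 against 3 allows, and 0.525 after adjustment. The AAVrh.10mCherry livers were at 0.0861 ± 0.0179%. In the liver this list includes spliced mRNAs that are known to be held in hepatocyte nuclei, among them Mlxipl, Nlrp6 and Gcgr, whose values are given above. Malat1 aside, Mlxipl and Gcgr had the highest mean levels of the tested members in both groups. Together with Nlrp6 they made up most of the summed share, and each of them was also a DESeq2 call on these counts. The list was chosen with earlier results of these data known, so its sum is not separate support for a difference in nuclear RNA. Of the 10 nuclear-retained RNAs tested, Malat1 included, none passed and 8 were above 0, while Meg3 (-0.43) and Pvt1 (-0.07) were below. In 5, namely Mlxipl, Nlrp6, Gcgr, Neat1 and Firre, every AAVrh.10Null liver was above every PBS liver, against 11.7% of all genes. The median log2 change of the 10 was 1.08. Neat1, the scaffold of paraspeckles, was at 214, 302 and 317 CPM in AAVrh.10Null livers 2, 5 and 8 and at 121, 69.8 and 207 CPM in PBS livers 1, 4 and 7 (log2 change 1.14). Firre, a nuclear-matrix RNA, had a log2 change of 1.29 and Kcnq1ot1, an imprinted antisense RNA, 1.53, the last with overlapping groups.

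Mitochondrially encoded transcripts made up 8.26%, 8.58% and 17.3% of UMIs in AAVrh.10Null livers 2, 5 and 8, against 7.21%, 3.43% and 9.41% in PBS livers 1, 4 and 7. The means were 11.4 ± 5.12% in AAVrh.10Null livers and 6.69 ± 3.02% in PBS livers (SD, n = 3 each), the groups overlapped, and the exact permutation p was 0.3 (0.525 adjusted). The difference of the means, 4.69 percentage points, was 1.73 without AAVrh.10Null liver 8, and 1.37 over barcodes with at least 500 genes. Among the 6 livers AAVrh.10Null liver 8 stood out: 39.1% of its barcodes (95% exact interval 37.9 to 40.2) had over 20% mitochondrial UMIs, against 1.79% in liver 2, 0.400% in liver 5 and 1.67%, 0.438% and 10.5% in PBS livers 1, 4 and 7. AAVrh.10mCherry liver 6 was also high, with 27.2% of its barcodes over 20% and a mitochondrial share of 17.8%. The mean share of the AAVrh.10mCherry livers was 11.4 ± 5.87%. The fitted changes of all 17 mitochondrial features tested were above 0 with none passing, at a median of 0.91. The median was 0.38 among livers 2, 7 and 8, where all genes were at 0.23, and 0.71 among livers 1, 4 and 5. For mt-Te, mt-Ti and mt-Tt the mean CPM was lower in AAVrh.10Null livers. In 2 of the 17, mt-Cytb and mt-Nd1, every AAVrh.10Null liver was above every PBS liver, or 11.8%, about the 11.7% of all genes. mt-Cytb was at 11322, 11857 and 19468 CPM in AAVrh.10Null livers 2, 5 and 8 and at 7048, 4769 and 8780 CPM in PBS livers 1, 4 and 7 (log2 change 1.05). The 2 ribosomal RNAs of the mitochondrion, which make up much of the class, overlapped, mt-Rnr2 at a log2 change of 0.69. Among livers 2, 8 and 7, AAVrh.10Null liver 8 was above PBS liver 7 and AAVrh.10Null liver 2 below it, and among livers 5, 1 and 4 the share was 8.58% (AAVrh.10Null) and 5.32% (PBS). How far nuclear and mitochondrial shares account for single genes was not tested.

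**Figure D3:**
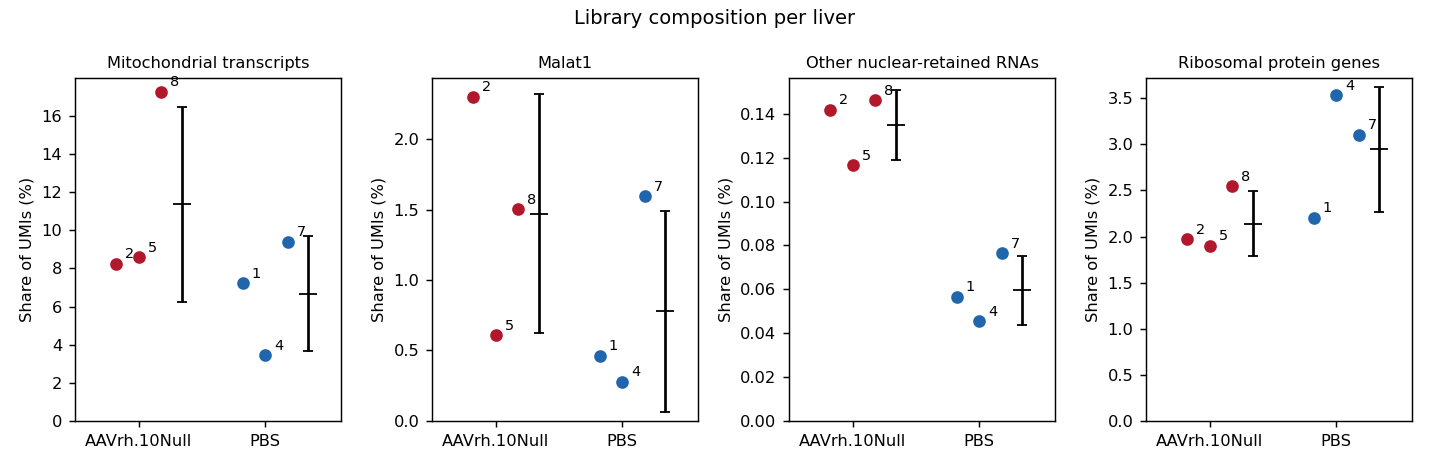
Share of all UMIs per liver, in percent, for mitochondrial transcripts, Malat1, the other nuclear-retained RNAs and ribosomal protein genes, with mouse numbers beside the points and the mean ± SD of each group as a bar. The other nuclear-retained RNAs are the 1 measure in which all AAVrh.10Null livers (0.117 to 0.146%) lie above all PBS livers (0.0454 to 0.0765%).

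Genes of RNA processing were mostly above 0. Of 38 splicing kinases and SR proteins, which choose splice sites, none passed, 35 were above 0, and in 14 every AAVrh.10Null liver was above every PBS liver, or 36.8% against 11.7% of all genes. Their median log2 change was 0.51, and it was 0.38 among livers 2, 7 and 8, where all genes were at 0.23, and 0.41 among livers 1, 4 and 5, where all genes were at -0.01. Luc7l2, a U1 snRNP-associated protein, was at 358, 273 and 401 CPM in AAVrh.10Null livers 2, 5 and 8, against 167, 128 and 200.2 CPM in PBS livers 1, 4 and 7 (log2 change 1.08). Pnisr was at 1.25, the RNA helicase Ddx17 at 0.98 and the SR-protein kinase Clk4 at 1.14, at adjusted p of 0.158 to 0.169 (edgeR). Among 15 host RNAs of small nucleolar RNAs, 11 were above 0, with a median of 0.35, and in 5 (33.3%, against 11.7% of all genes) every AAVrh.10Null liver was above every PBS liver. Snhg20 was at 31.0, 19.99 and 34.3 CPM in AAVrh.10Null livers and 6.67, 9.36 and 10.3 CPM in PBS livers (log2 change 1.82, adjusted p = 0.120), whereas Gas5, the most abundant, had a change of -0.02.

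Genes of translation and respiration were mostly below 0. All 78 ribosomal protein genes tested were below 0, at a median of -0.46, and none passed. In 12 of them every AAVrh.10Null liver was below every PBS liver, or 15.4% against 7.52% of all genes. Rps9 was at 448.5, 621 and 564 CPM in AAVrh.10Null livers 2, 5 and 8, against 777, 873 and 870 CPM in PBS livers 1, 4 and 7 (log2 change -0.62). As a share of UMIs the ribosomal proteins took 1.97%, 1.90% and 2.54% in AAVrh.10Null livers and 2.21%, 3.53% and 3.10% in PBS livers, with overlap (exact permutation p = 0.2). Of 75 nuclear-encoded subunits of the respiratory chain, 72 were below 0 and in 23 (30.7%) every AAVrh.10Null liver lay below every PBS liver, against 7.52% of all genes, at a median of -0.32, opposite in sign to the mitochondrially encoded subunits. Sdhd, an anchor subunit of complex II, was at 146, 175 and 170 CPM in AAVrh.10Null livers and 295, 218 and 328 CPM in PBS livers (log2 change -0.76).

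Across all protein-coding genes the change followed transcript length. The protein-coding genes outside the mitochondrial genome were divided into 5 quintiles of annotated exonic length, 2029 genes in each, with all exons of a gene merged. From the shortest quintile, 0.374 to 2.49 kb, to the longest, 7.77 to 123.2 kb, the median log2 change was -0.26, -0.12, 0.01, 0.12 and 0.27. Every AAVrh.10Null liver was above every PBS liver for 1.73% of the shortest and 23.1% of the longest genes, and below for 16.3% and 2.02%. The order was the same within each barcode kind, with -0.14 in the shortest and 0.51 in the longest quintile among livers 2, 7 and 8 and -0.22 and 0.19 among livers 1, 4 and 5. Intronic length gave a smaller range, with a median of -0.17 in the shortest quintile and 0.14 in the longest. The 496 long non-coding RNAs had a median of 0.59, but 0.26 among livers 2, 7 and 8, close to the 0.23 of all genes there, and 0.21 among livers 1, 4 and 5. The 354 pseudogenes, whose reads cannot be told surely from those of their parent genes, had a median of -0.65. Of the ribosomal protein genes 54 of 78 were in the shortest quintile and 0 in the longest, of the respiratory chain genes 53 of 74 and 1, and of the splicing genes 1 of 38 and 16, and the part of length in the values of these lists was not tested.

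By liver, the longest genes averaging at least 20 CPM were above the mean of the 6 livers by 0.20, 0.12 and 0.14 (median log2 difference) in AAVrh.10Null livers 2, 5 and 8, and at -0.14, -0.07 and -0.23 in PBS livers 1, 4 and 7. The AAVrh.10Null and PBS livers were apart in that quintile. The shortest quintile was at -0.20, -0.02 and -0.09 in AAVrh.10Null livers and at 0.20, 0.16 and 0.03 in PBS livers, also apart. AAVrh.10mCherry livers fell on both sides: the longest genes were at -0.02 in liver 3, near the PBS livers, and at 0.17 in livers 6 and 9, near the AAVrh.10Null livers. Since single livers of 1 treatment lay on both sides, the length pattern also varied within a group.

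**Figure D4:**
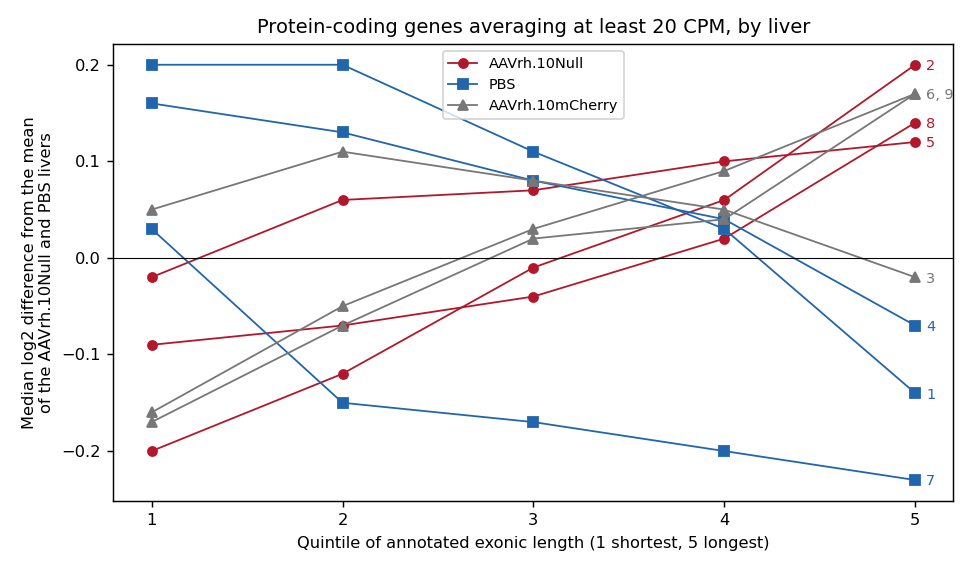
Median log2 difference of each liver from the mean of the 6 AAVrh.10Null and PBS livers, for protein-coding genes averaging at least 20 CPM in quintiles of exonic length, with mouse numbers at the right. In the longest quintile the AAVrh.10Null livers lie between 0.12 and 0.20 and the PBS livers between -0.23 and -0.07, while AAVrh.10mCherry liver 3 (-0.02) and livers 6 and 9 (0.17) are divided.

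Lists tied to the sensing of a vector showed no common direction. Of 36 type I interferon response genes, none passed, 9 were above and 27 below 0, and the median was -0.19. Stat2, a subunit of the interferon-activated ISGF3 complex, was at 76.2, 69.4 and 71.4 CPM in AAVrh.10Null livers 2, 5 and 8, against 29.9, 40.8 and 41.4 CPM in PBS livers 1, 4 and 7 (log2 change 0.996, adjusted p = 0.158, edgeR). Isg15, a ubiquitin-like effector of the same response, was at 6.75, 6.17 and 6.09 CPM in AAVrh.10Null livers and 10.5, 12.5 and 27.6 CPM in PBS livers (log2 change -1.04). A transducer and an effector of the pathway thus differed in sign. Nucleic acid sensors had a median of 0.01 (17 tested, 9 above 0), NF-kB targets 0.07 (14 tested, 8 above 0) and host factors of AAV entry -0.09 (29 tested, 11 above 0). Guanylate-binding proteins and related GTPases had a median of -0.43, with 16 of 19 below 0. Gbp11 went the other way, at 129, 27.9 and 9.61 CPM in AAVrh.10Null livers and 7.15, 4.49 and 6.90 CPM in PBS livers (log2 change 3.20), a difference carried mostly by liver 2. Several of these medians differed in sign between the barcode kinds. Among livers 2, 7 and 8 they were 0.41 for the interferon response, 0.47 for nucleic acid sensors, 0.17 for NF-kB targets and 0.31 for the guanylate-binding list, against -0.25, -0.04, -0.11 and -0.41 for the same lists among livers 1, 4 and 5. All genes tested were at 0.23 and -0.01 in the same order, so the NF-kB median was below that of all genes within both kinds.

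Antigen presentation genes were mostly below 0 without passing. All 8 class II genes tested were below 0, at a median of -1.45. Cd74, the invariant chain, was at 28.3, 9.38 and 14.7 CPM in AAVrh.10Null livers 2, 5 and 8, against 20.9, 76.5 and 155 CPM in PBS livers 1, 4 and 7, PBS liver 1 lying inside the AAVrh.10Null range (log2 change -2.01). The class II median moved with the barcode kind, at -0.26 among livers 2, 7 and 8 and -1.47 among livers 1, 4 and 5. Of 22 class I genes 19 were below 0, with a median of -0.37. H2-D1, a classical class I chain, was at 248, 291 and 255 CPM in AAVrh.10Null livers, against 348, 376 and 431 CPM in PBS livers (log2 change -0.54).

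Markers of cells other than hepatocytes were also mostly below 0, and in sums over a library fewer cells of a type and less RNA per cell cannot be told apart. The sums of markers below are CPM without TMM scaling. T and NK cell markers summed to 59.6, 21.5 and 37.5 CPM in AAVrh.10Null livers 2, 5 and 8, against 13.1, 186 and 178.5 CPM in PBS livers 1, 4 and 7. Plasma cell markers summed to 111, 87.2 and 94.7 CPM in AAVrh.10Null livers and 94.4, 155 and 793 CPM in PBS livers, and stellate cell and fibroblast markers to 225, 154.5 and 101 CPM in AAVrh.10Null livers and 175, 243 and 786 CPM in PBS livers. PBS livers 4 and 7 were high and PBS liver 1 was not, so the groups overlapped in each list. A single marker, Sdc1, made up most of the plasma cell sum in every liver but PBS liver 7. With TMM scaling, Sdc1 was at 82.1, 78.0 and 81.4 CPM in AAVrh.10Null livers 2, 5 and 8. In PBS livers 1, 4 and 7 it was at 84.85, 116.5 and 62.1 CPM. Endothelial markers ranged from 121 to 389 CPM in AAVrh.10Null livers and 179 to 621 CPM in PBS livers, Kupffer cell markers from 263 to 437 CPM in AAVrh.10Null livers and 196 to 546 CPM in PBS livers, and B cell markers from 11.6 to 28.1 CPM in AAVrh.10Null livers and 11.2 to 109.8 CPM in PBS livers. Monocyte, dendritic cell and neutrophil markers ranged from 119.5 to 158 CPM in AAVrh.10Null livers and 199 to 347 CPM in PBS livers, and cholangiocyte markers from 15.4 to 47.8 CPM in AAVrh.10Null livers and 29.3 to 51.5 CPM in PBS livers. The sums were apart in the monocyte, dendritic cell and neutrophil list alone, of which Bst2, also an interferon response gene, made up most, and without Bst2 they were 14.3, 8.27 and 13.4 CPM in AAVrh.10Null livers and 11.5, 43.5 and 48.0 CPM in PBS livers, with overlap. Of the 18 T and NK markers, 11 were tested and all 11 were below 0 (median -1.51); medians were -0.71 for B cell, -0.71 for plasma cell, -0.94 for monocyte, dendritic cell and neutrophil, -0.63 for stellate cell, -0.32 for endothelial, -0.40 for Kupffer cell and -0.20 for cholangiocyte markers. The Kupffer cell median was 1.31 among livers 2, 7 and 8 and -0.77 among livers 1, 4 and 5. Hepatocyte markers were far above these lists in every library, at 88049, 107367 and 99978 CPM in AAVrh.10Null livers and 109502, 117585 and 103842 CPM in PBS livers, with a median of -0.12, so the labelled tissue was present in each. The part of these cells in the antigen presentation and interferon values was not tested.

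Clock genes had a median of 0.86 (19 tested, 14 above 0), and none passed. Nr1d1, the REV-ERB alpha repressor, was at 38.0, 46.9 and 52.4 CPM in AAVrh.10Null livers 2, 5 and 8, against 34.9, 6.83 and 17.3 CPM in PBS livers 1, 4 and 7 (log2 change 1.13, adjusted p = 0.308, edgeR). Dbp, a clock output factor, was at 66.3, 7.16 and 54.6 CPM in AAVrh.10Null livers and 16.9, 3.51 and 0 CPM in PBS livers, with liver 5 inside the PBS range (log2 change 2.12). Arntl, the activator BMAL1 that peaks opposite to these genes, had a log2 change of -1.26. The median was 0.80 among livers 2, 7 and 8 and 0.01 among livers 1, 4 and 5, and the time of day at collection is not given in the sources used here.

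Hepatocyte metabolism showed smaller medians, with no member of any list passing. Bile acid genes were above 0 in 20 of 27 (median 0.19). Abcb11, the bile salt export pump, was at 330, 331 and 279.5 CPM in AAVrh.10Null livers 2, 5 and 8, against 226, 251 and 117 CPM in PBS livers 1, 4 and 7 (log2 change 0.63, adjusted p = 0.357, edgeR). In lipid handling, cholesterol synthesis as a list had a median of -0.17 (17 of 25 below 0) and apolipoproteins -0.07 (14 of 21 below 0). Fatty acid synthesis had a median of -0.29, with 13 of 21 below 0 (0.012 among livers 2, 7 and 8 and -0.18 among livers 1, 4 and 5), and its regulator Mlxipl, also in the nuclear list, was its member with the smallest p. Within both kinds its median was below that of all genes tested, which was 0.23 and -0.01. Fatty acid oxidation had a median of -0.13 (22 of 29 below 0) and the fasting and insulin response 0.26 (14 of 24 above 0), with the insulin receptor Insr at 82.3, 71.1 and 69.7 CPM in AAVrh.10Null livers and 34.7, 60.5 and 13.8 CPM in PBS livers.

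Detoxification genes were mostly below 0 without passing. Of 22 glutathione S-transferases 21 were below 0, at a median of -0.45, and 18 of 21 NRF2 targets and metallothioneins were below 0, at -0.31. The shortest quintile of exonic length, with a median of -0.26, held 18 of the 22 glutathione S-transferases and 8 of the 21 NRF2 targets and metallothioneins. It also held 30 of 47 cytochrome P450 genes of families 1 to 4. The part of length in these values was not tested. Gpx4, which reduces lipid peroxides, was at 15.01, 41.7 and 42.0 CPM in AAVrh.10Null livers 2, 5 and 8, against 62.2, 61.4 and 138 CPM in PBS livers 1, 4 and 7 (log2 change -1.27, adjusted p = 0.266, edgeR). Ftl1, the ferritin light chain, was at 351, 1370 and 1174 CPM in AAVrh.10Null livers and 1865, 1432 and 3530 CPM in PBS livers. For both, AAVrh.10Null liver 2 was the lowest and PBS liver 7 the highest. Cytochrome P450 families 1 to 4 had a median of -0.10 (32 of 48 below 0), with 0.33 among livers 2, 7 and 8 and -0.10 among livers 1, 4 and 5, and UDP-glucuronosyltransferases 0.04 (9 of 16 above 0). Genes higher in male liver under pulsatile growth hormone had a median of 0.28 (27 of 39 above 0), and genes higher in female liver -0.48 (10 of 15 below 0). Cyp2c40, one of the female-biased genes, was at 3.54, 8.39 and 9.45 CPM in AAVrh.10Null livers and 30.1, 21.6 and 58.7 CPM in PBS livers (log2 change -2.12, adjusted p = 0.228), and near-identical Cyp2c genes could have shared its reads.

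Iron handling had a median of 0.08, with 4 of 19 genes apart upward (21.1%, against 11.7% of all genes), Slc39a14 and the transferrin receptor Tfrc among them, and 4 apart downward (21.1%, against 7.52%), Hamp2 and Ftl1 among them. Targets of p53 had a median of -0.15 (13 of 21 below 0). Cdkn1a, the p21 cell cycle inhibitor, was at 4.89, 3.95 and 5.77 CPM in AAVrh.10Null livers 2, 5 and 8, against 9.63, 19.3 and 75.9 CPM in PBS livers 1, 4 and 7 (log2 change -2.16, adjusted p = 0.296, edgeR). The livers were apart for it, with PBS liver 7 far above the rest. Medians were 0.20 for the unfolded protein response (18 of 24 above 0), -0.17 for heat shock (25 of 31 below 0), -0.43 for immediate early genes (14 of 24 below 0), -0.13 for acute phase proteins (22 of 32 below 0), 0.07 for complement (21 of 33 above 0), 0.07 for coagulation (18 of 28 above 0), -0.04 for the cell cycle (10 of 15 below 0), -0.23 for pericentral (23 of 29 below 0) and -0.06 for periportal hepatocyte genes (20 of 30 below 0). The immediate early median was -1.26 among livers 2, 7 and 8 and 0.18 among livers 1, 4 and 5. The reverse order held for heat shock (0.18 and -0.09), acute phase proteins (0.15 and -0.16), pericentral genes (0.43 and -0.09) and periportal genes (0.33 and -0.20), each pair giving livers 2, 7 and 8 and then livers 1, 4 and 5. All genes tested were at 0.23 and -0.01 in the same order. Heat shock and acute phase medians were thus below that of all genes within both barcode kinds. Immunoglobulin and plasma cell genes had a median of -0.60 (8 of 11 below 0) and held the single called member, Igkv3-12; Ighmbp2, which was taken in by its symbol, is not an immunoglobulin gene. Haemoglobin and red cell genes had a median of -0.04, with 2.59 among livers 2, 7 and 8 and -0.04 among livers 1, 4 and 5, and haemoglobin took 0.240%, 0.0386% and 0.000193% of UMIs in AAVrh.10Null livers and 0.00737%, 0.0680% and 0.00549% in PBS livers (exact permutation p = 0.7). Of 3 features that overlap ribosomal RNA repeats, Gm26917 was at 199, 51.6 and 101 CPM in AAVrh.10Null livers and 22.3, 29.8 and 41.4 CPM in PBS livers, and the median of the 3 was -0.14.

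**Figure D5:**
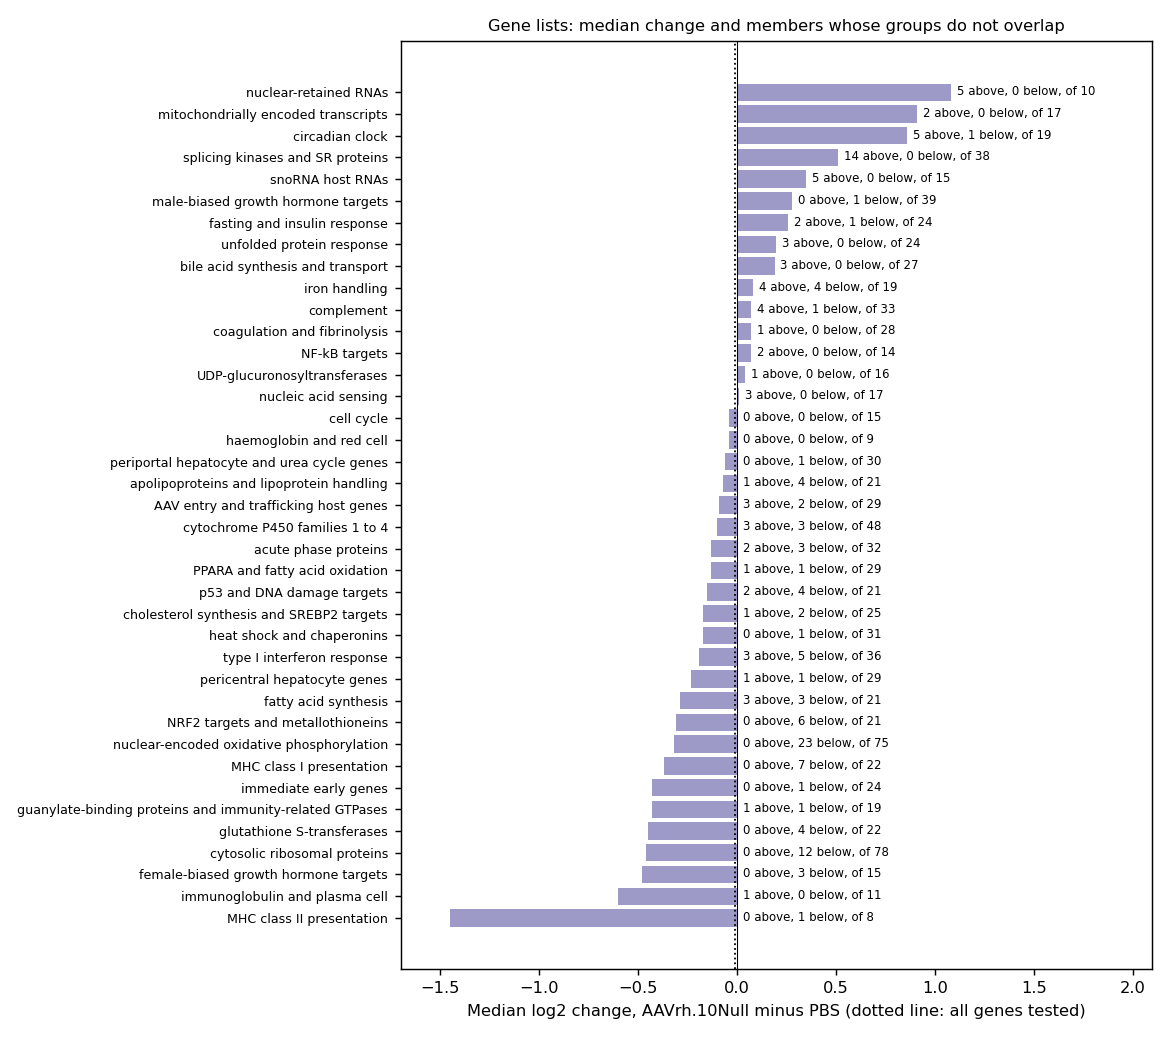
Median log2 change of AAVrh.10Null minus PBS livers for each list with at least 5 tested genes, cell type markers aside, with the number of genes whose AAVrh.10Null livers all lay above or all below the PBS livers. The dotted line is the median of all genes (-0.01); nuclear-retained RNAs reach 1.08 at the top and class II presentation -1.45 at the bottom.

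None of the most abundant transcripts passed the test. Alb, albumin, was at 32253, 40982 and 49449 CPM in AAVrh.10Null livers 2, 5 and 8, against 38120, 49134 and 46165 CPM in PBS livers 1, 4 and 7 (log2 change -0.12, SE 0.27, adjusted p = 0.879, edgeR). The secreted carriers Apoa2 (-0.46), Apoa1 (-0.27), Ttr (-0.22) and Apoe (-0.07), the fatty acid carrier Fabp1 (-0.08), the antiprotease Serpina1e (0.11) and the urinary pheromone carriers Mup3 (0.08) and Mup20 (0.24) had adjusted p between 0.486 and 0.982. Apoa2 was at 20521, 23244 and 22865 CPM in AAVrh.10Null livers and 23440, 29230 and 39280 CPM in PBS livers, and the livers were apart for it. Serpina1e and the Mup genes belong to families of near-identical copies between which counting may split reads.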

How the data were processed

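Drop-seq counts of 9 livers, 1 per mouse, were used, with 3 mice in each treatment group. The deposited files hold a whole-number count of UMIs per gene and barcode without scaling. Per the labels' protocols, libraries were sequenced on a HiSeq 2500 with 101 cycles, per the file headers of the deposited readme with bcl2fastq 2.19, and per the submitters' processing notes mm10 and Seurat were used. The aligner, the counting tool, whether it used strand, and the rule that chose the barcodes are not given in the sources used here.

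UMIs were summed per liver over barcodes with at least 200 genes. In R 4.3.3, edgeR 4.0.16 (TMM, filterByExpr, quasi-likelihood test) was fitted to all 9 livers with group as the only term, contrast AAVrh.10Null minus PBS, with Benjamini-Hochberg adjustment over 11321 genes and a threshold of 0.05. The AAVrh.10mCherry livers entered the filter, the scaling and the estimate of spread, and with 6 livers alone 10690 genes were tested. DESeq2 1.42.0, limma 3.58.1, other normalizations, filters, barcode sets and leaving out each liver were alternatives, and the test was checked on simulated data. Levels are TMM-normalised CPM, except that intervals, floors, the levels for 5 UMIs, the mCherry levels and the sums of marker lists use all UMIs without TMM scaling. Library measures were compared by two-sided exact permutation tests over livers. The 49 gene lists were described by counts and medians with no test, and the lists, like the members, were chosen with earlier results of these data known. Named genes were every passing gene, the first 10 in either direction by p among genes averaging at least 20 CPM, the 10 most abundant, up to 4 per list with the smallest p, and Malat1 and mCherry; any other gene was named after its values were seen. Some of the genes that this rule names are not reported here. Gene structure and sequences are from GENCODE M21 (GRCm38), in which 97.5% of the genes tested were found by symbol. The exonic length comparison was added after the data were seen. Doublets were not removed, since no cell types were called. Python 3.11.15, scipy 1.17.1 and matplotlib 3.10.9 were used.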

Additional observations from a re-analysis of the deposited data

Results flagged for a closer look

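Ighv9-3 and Igkj1, which were below the filter for testing, had UMIs in every AAVrh.10Null liver and 0 in every PBS liver. Ighv9-3 had 105 UMIs over the 3 AAVrh.10Null livers and Igkj1 had 23, both above the 3 UMIs that a count of 0 in the pooled PBS livers allows. Both were picked for at least 5 UMIs in each AAVrh.10Null liver and 0 in the PBS livers, so passing that floor followed from the choice. At a minimum of 3 UMIs in each AAVrh.10Null liver, 6 features had 0 in every PBS liver. Ighv9-3 and Igkj1 were at 0 in the AAVrh.10mCherry livers as well.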

How the results depend on the processing

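Among the 21 alternatives Igkv3-12 was called in 13. Its log2 change was 9.95 with limma-voom (adjusted p = 0.0632), 13.3 with genes of at least 20 CPM (0.0619), 13.56 with a term for livers 2, 7 and 8 (0.0597) and 13.57 with a term for livers 2 and 8 (0.129), where liver 5 alone stands against the PBS livers, and leaving out 1 liver gave 13.1 to 13.54. Higher calls numbered 41 with DESeq2, 0 with limma-voom, 230 without a filter on low counts, 0 at 20 CPM or more, 47 over barcodes with at least 500 genes, where PBS liver 7 keeps 38 barcodes, and 0 with either library term. Leaving out 1 liver gave 0 to 8 higher calls: 8 without AAVrh.10Null liver 5, and 0 without AAVrh.10Null liver 8 or any 1 of PBS livers 1, 4 and 7. Lower calls numbered 3 with DESeq2 and 76 without the filter, and at 0 calls in edgeR 398 genes had an unadjusted p under 0.05. Of 642 values of the other named genes under alternatives, 592 kept direction and side of the threshold, 31 passed it newly and 19 turned in sign, all of the last in genes far from passing. Over all deposited barcodes Mup3 was at -0.08 and Serpina1e at -0.05, and with at least 500 genes Mup3 was at -0.22, Serpina1e at -0.17 and Mup20 at -0.07. With a term for livers 2, 7 and 8 mCherry was at 0.81, and with a term for livers 2 and 8, which compares liver 5 alone with the PBS livers, mCherry was at 0.99, Apoe at 0.1 and Malat1 at -0.33. Leaving out 1 liver gave -0.26 to 0.04 for Alb, -0.19 to 0.27 for Mup3, -0.15 to 0.05 for Apoe, -0.12 to 0.02 for Fabp1, -0.17 to 0.39 for Serpina1e, -0.17 to 0.76 for Mup20 and -6.86 to 8.31 for mCherry. Over barcodes with at least 500 genes the Malat1 share differed by 1.63 percentage points and that of the other nuclear-retained RNAs by 0.14, against 0.692 and 0.0753, and as a median over barcodes the last was 0, since most barcodes hold no such UMI. Of 1053 list and length medians under alternatives, 998 stayed within the spread between livers. Many lists still changed sign in at least 1 alternative. The interferon response ranged from -0.41 to 0.18, Kupffer cell markers from -0.73 to 0.62 and periportal genes from -0.23 to 0.09. The nuclear-retained, mitochondrial, splicing, ribosomal protein, respiratory chain and class II lists kept their sign in every alternative. Where a value changed, the cause was not tested. No paired analysis was run, because the labels name no pairs of mice. Depth limits PBS liver 7, where a count of 0 allows 10.3 CPM.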
